A study of Mus musculus with 366 samples.

Results

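The aortic transcriptome of the FVB/NJ F1 was set against that of the C57BL/6J F1. Members were taken by the strain label alone: the 4 arrays labelled FVB/NJ and the 6 arrays labelled C57BL/6J, of 366 arrays in the series, each from the aorta of 1 mouse and each with a log2 value for 45141 probe sets. In the Ath-HMDP cross, females of an inbred strain were mated to C57BL/6J males that carried the human APOE-Leiden and CETP transgenes, and the question behind the cross is how the strain background shapes an aorta exposed to atherogenic lipoproteins.

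All 10 mice were female, 24 weeks old, and carried the transgenic C57BL/6J genome of their father; they received chow for 8 weeks and then a Western diet for 16 weeks. An FVB/NJ F1 mouse therefore holds an FVB/NJ and a C57BL/6J copy of each autosome and has an FVB/NJ mother, whereas a C57BL/6J F1 mouse holds C57BL/6J copies alone and is the one group of the series that is not a hybrid. The transgenic males were heterozygous for APOE-Leiden and homozygous for CETP, and neither the sites nor the copy numbers of the transgenes are known. The aorta was taken whole, from the arch to the middle of the abdomen, and freed of the surrounding fat, so a difference between groups can be one of RNA per cell or one of the mix of cells, and these cannot be told apart.

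FVB/NJ is an inbred strain of Swiss origin that is widely used to make transgenic mice, and hyperlipidaemic FVB mice are known for small aortic lesions beside C57BL/6J. Several inherited differences between the strains are textbook knowledge: C57BL/6J lacks a working Nnt, the mitochondrial transhydrogenase; FVB/NJ lacks complement component 5, encoded by Hc; and the H2-b haplotype of C57BL/6J and the H2-q haplotype of FVB/NJ both fail to express the class II chain H2-Ea. An F1 carries a single copy of each parental allele, so an allele that is silent in FVB/NJ is paired here with the C57BL/6J allele.

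The C57BL/6J arrays were not uniform. The arrays whose titles carry the numbers 1022 to 1025 correlated with each other at 0.992 to 0.996 over all probe sets, whereas arrays 226 and 1001 correlated with these 4 at 0.973 to 0.985 and with the FVB/NJ arrays (numbers 18, 22, 24 and 25) at 0.979 to 0.991. No 2 arrays held identical values. Every FVB/NJ title number lies below every C57BL/6J one, so within these 10 arrays the number and the strain cannot be told apart, and the labels give no batch. In 5 other strains with titles on both sides of 100, limma called 0 probe sets by whether the number was at most 100. That effect rested on 11 such arrays. An unadjusted p under 0.05 was found in 3038 probe sets, more than the average if nothing differed. Probe sets are not independent, and how far such a count can vary was not tested. Fitted over all strains, 3391 probe sets differed between FVB/NJ and C57BL/6J, and 671 with that number as a covariate. With the covariate, 34 of the 54 called genes named below stayed called. All C57BL/6J numbers lie above 100, so this covariate cannot address the split among their arrays. The smooth muscle of the media was present in every sample: Acta2 (smooth muscle actin) read 10.33, 10.86, 9.09 and 8.96 in the FVB/NJ arrays 18, 22, 24 and 25, the order used throughout, and 8.88 (lowest), 10.75 (median) and 11.69 (highest) in C57BL/6J. Acta2 was 8.88 to 9.39 in arrays 226 and 1001 and 10.71 to 11.69 in arrays 1022 to 1025, so that the FVB/NJ mean lay 0.67 above the former and the difference from the latter was -1.37 on the log2 scale. Ucp1, the uncoupling protein of brown fat, stood at 12.33 to 12.94 in all 10 arrays, whose medians over all probe sets were 3.23 to 3.32.

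At a Benjamini-Hochberg adjusted p of at most 0.05 (limma, "called" hereafter), 412 of 45141 probe sets (0.913%) differed, 164 higher (0.363%) and 248 lower (0.549%) in the FVB/NJ F1. Quantile normalization of the 10 arrays split 372 calls into 191 higher and 181 lower. Among the 412, 127 differed by at least 2-fold, 66 higher and 61 lower. In 404 of them no FVB/NJ array overlapped a C57BL/6J array, against 4.02% of all probe sets. The calls were made on the same values and favour groups that lie apart, so this is not separate support. Of the called probe sets, 307 carry 1 gene symbol and stand for 276 genes, 98 carry no symbol and 7 carry several. Read from 1 probe set per gene, 191 of 17097 genes were called (1.12%), 89 higher (0.521%) and 102 lower (0.597%), and the median difference over all genes was 0.03.

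The number of calls turned on which C57BL/6J arrays entered. Without arrays 226 and 1001, 8611 probe sets were called, and without arrays 1022 to 1025, which leaves 2 C57BL/6J arrays, 13 were called. Leaving out array 226 alone gave 3352 calls and leaving out array 1001 alone gave 727, and the count fell to between 175 and 353 when any 1 FVB/NJ array was left out and to between 190 and 218 when 1 of arrays 1022 to 1025 was. Relative to the difference from all 6 C57BL/6J arrays, the difference of a called probe set from arrays 226 and 1001 was 0.882 times as large in the median, and that from arrays 1022 to 1025 was 1.06 times as large. These probe sets were called with all 6 arrays, which favours those in which the 6 agree, so the ratios do not describe the other probe sets. Of 54 called genes named below, 24 were called in every fit that left out 1 array. Gdpd3, Serpina1b, Psmc3ip, Ifi202b and Tspan18 were also called against arrays 226 and 1001 alone, and the other 49 were not.

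**Figure D1:**
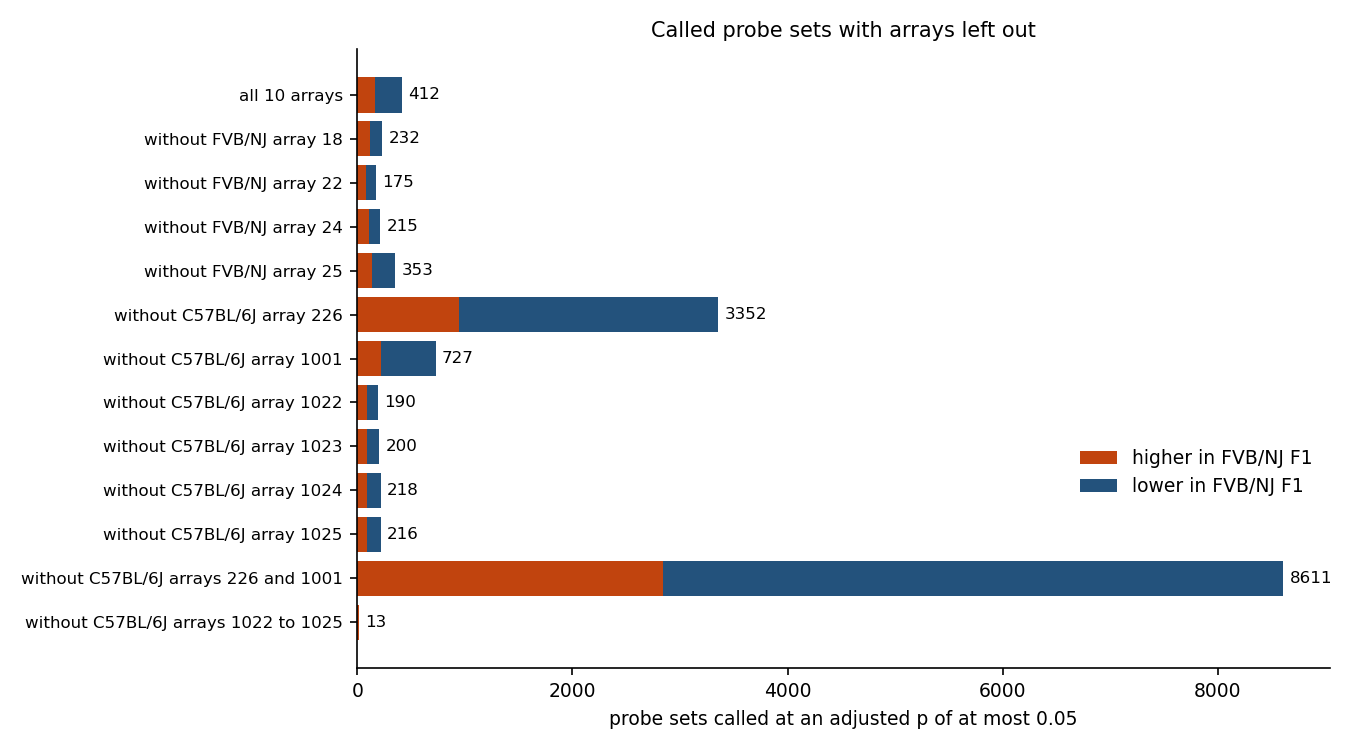
Number of probe sets called at an adjusted p of at most 0.05 (x axis) with all 10 arrays and with arrays left out (y axis), split into those higher and lower in the FVB/NJ F1. The bar is longest, at 8611, without the C57BL/6J arrays 226 and 1001 and shortest, at 13, without arrays 1022 to 1025.

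Among called probe sets with a gene symbol the widest difference was in Gchfr, whose product binds GTP cyclohydrolase and lets tetrahydrobiopterin, the cofactor of the nitric oxide synthases, inhibit its own synthesis. Gchfr read 9.13, 8.46, 8.05 and 9.40 in the FVB/NJ F1 and 3.47, 3.99 and 5.65 (lowest, median, highest) in the C57BL/6J F1. The groups were far apart, and the highest C57BL/6J value came from array 226. The mean difference was 4.59 ± 0.41 (SE; 24.1-fold; adjusted p = 0.000506), or 3.73 from arrays 226 and 1001 and 5.02 from arrays 1022 to 1025. The enzyme that Gchfr regulates, Gch1, did not pass (0.24 ± 0.17, adjusted p = 0.459), nor did endothelial nitric oxide synthase Nos3 (0.01 ± 0.17, adjusted p = 0.985). Of the 19 measured genes of nitric oxide and arginine metabolism, Gchfr alone was called, and the median of the list was 0.24.

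Gdpd3, an enzyme that releases lysophosphatidic acid from lysophospholipids, read 7.98, 7.71, 7.53 and 7.94 in the FVB/NJ F1 and 3.49, 3.76 and 4.84 in the C57BL/6J F1, a difference of 3.94 ± 0.24 (adjusted p = 2.79e-05). Psmc3ip, a partner of the recombinases of meiosis, read 7.35, 7.13, 7.56 and 7.01 against 4.08, 4.28 and 4.80, a difference of 2.94 ± 0.16 (adjusted p = 1.92e-05). The SD of Gdpd3 was 0.21 in the FVB/NJ F1 and 0.50 in the C57BL/6J F1, where array 226 stood highest, and that of Psmc3ip was 0.24 and 0.29. Abhd1, a member of the alpha/beta hydrolase family, was higher by 2.46 (5.51-fold), and its values of 5.81 to 6.78 against 3.51 to 4.06 left a wide gap. Hal, which opens histidine breakdown, read 4.42, 5.90, 5.25 and 4.45 against 2.33, 2.48 and 2.82, a difference of 2.50 ± 0.26 (adjusted p = 0.0013). The predicted gene Gm8126 was higher by 2.43, with an SD of 0.86 in the FVB/NJ F1.

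Serpina1b and Alb, among the genes with the largest rise, encode plasma proteins that the liver secretes. Serpina1b, one of the near-identical alpha-1-antitrypsin genes, read 5.94, 6.54, 6.23 and 6.12 against 2.19, 2.64 and 2.93, the smallest adjusted p among the named genes (3.22e-06, difference 3.61 ± 0.15); its second probe set gave 3.21, and both can read its paralogs. Alb, serum albumin, read 5.47, 6.83, 8.53 and 5.36 against 2.32, 2.52 and 4.29. The Alb groups did not overlap, but the FVB/NJ SD was 1.48 and array 24 stood highest (difference 3.67 ± 0.61, adjusted p = 0.021). Orm3, an orosomucoid, went the other way: 5.13, 4.58, 3.98 and 5.15 against 5.88, 6.42 and 6.71 (-1.63 ± 0.24, adjusted p = 0.0105). Of 15 measured hepatocyte markers, Alb was the only one called, 11 lay above 0, and the median was 0.49; their mean level ran from 4.52 to 5.28 in FVB/NJ and from 4.03 to 4.63 in C57BL/6J. Mup3, a major urinary protein, had a difference of -1.94 with arrays that did not overlap, yet was not called (adjusted p = 0.109). The part of liver RNA in the Alb difference was not tested.

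In several of the genes with the largest differences the probe sets disagreed, and 1 of them alone was called. Pnpt1, the mitochondrial polynucleotide phosphorylase, differed by 2.28 ± 0.16 in 1 of its 3 probe sets (adjusted p = 0.000108) and by 0.02 and -0.01 in the others. Hba-a1, an alpha globin, differed by 2.82 in 1 probe set and by -0.03 and 0.08 in the other two. Tspan18, a tetraspanin, gave 2.22, 0.27 and -0.91. Gabra3, a subunit of the GABA-A receptor, gave -2.47 ± 0.18 (adjusted p = 0.000113) in one and -0.01 in the other. By contrast, all 3 probe sets of Ptprf, the LAR receptor tyrosine phosphatase, were called, at 2.09, 1.71 and 1.11. The Ptprf probe set with the widest difference read 6.88, 7.33, 7.17 and 7.06 against 4.14, 4.80 and 6.16, and arrays 226 and 1001 were its 2 highest C57BL/6J values (6.16 and 5.54). Over the series of calls, 173 called genes had more than 1 probe set, 27 had more than 1 called, and in 55 another probe set had the opposite sign.

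**Figure D2:**
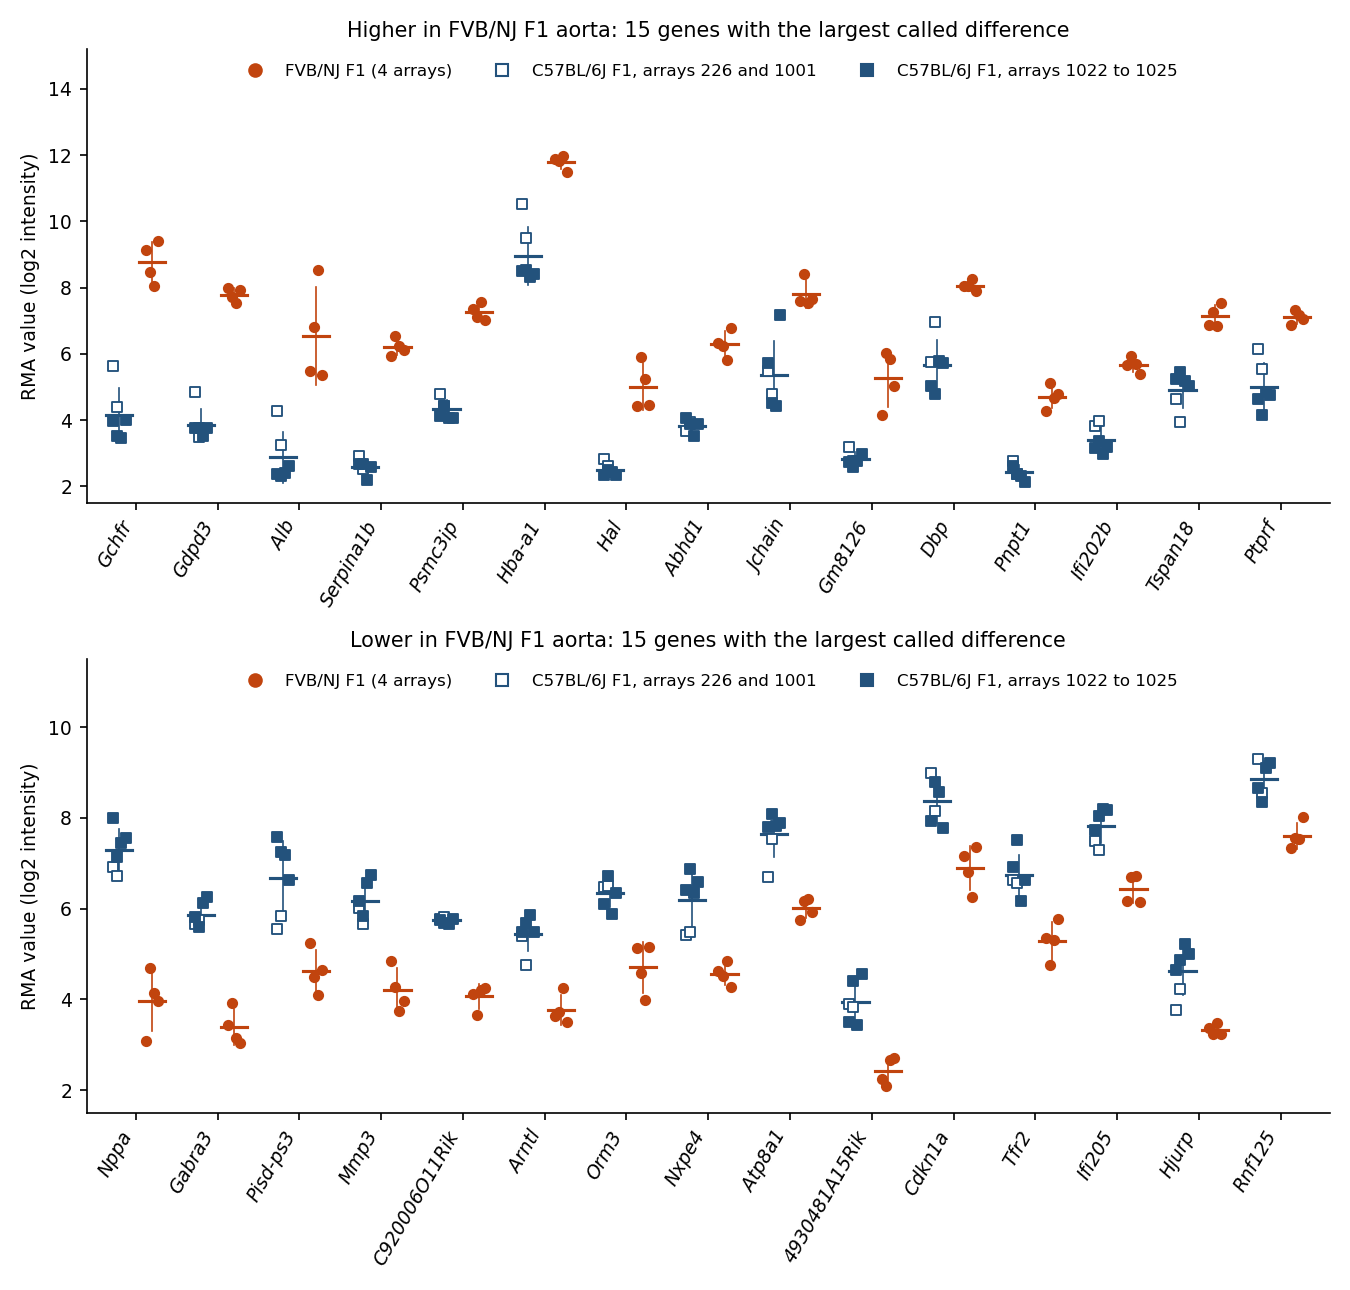
RMA values (log2 intensity, y axis) of the 15 genes with the largest called differences in each direction, 1 point per array, with group means (bars) and SDs (lines). The 30 genes were chosen among those whose groups do not overlap; the open squares mark C57BL/6J arrays 226 and 1001, which both lie nearer to the FVB/NJ points than all of arrays 1022 to 1025 in 14 of the 30 genes, Gchfr, Alb, Hba-a1, Ptprf, Nppa and Nxpe4 among them.

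Nppa, which encodes atrial natriuretic peptide, had the largest fall among called probe sets with a symbol. It read 3.08, 4.69, 4.14 and 3.96 in the FVB/NJ F1 against 6.73, 7.30 and 8.00 in the C57BL/6J F1, a difference of -3.33 ± 0.31 (10.1-fold; adjusted p = 0.0006). Nppa marks atrial muscle, and of the 13 measured cardiac muscle genes no other was called. Cardiac muscle genes had a median of -0.51, with Tnni1, Myl2 and Myl3 above 0, and against arrays 226 and 1001 the median was 0.78, while it was -1.23 against arrays 1022 to 1025. Their mean level overlapped between the groups (6.64 to 8.33 in FVB/NJ and 6.84 to 8.64 in C57BL/6J). The part of heart tissue in the Nppa difference was not tested.

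Mmp3 and Cdkn1a were among the genes that fell. Mmp3, the metalloproteinase stromelysin 1, read 4.84, 4.28, 3.74 and 3.96 against 5.66, 6.09 and 6.74 (-1.96 ± 0.25, adjusted p = 0.00519). Of the 18 measured metalloproteinases and inhibitors it was the only one called. Cdkn1a, the p21 inhibitor of cyclin-dependent kinases, fell in both of its probe sets, by 1.48 and 1.28. The second of these read 7.21, 7.13, 6.64 and 7.83 against 7.90, 8.48 and 9.03, and the groups lay side by side without overlap. Hjurp, the chaperone of the centromeric histone, fell by 1.29, and Rnf125, a ubiquitin ligase, by 1.25. Atp8a1, an aminophospholipid flippase, fell by 1.62 in 1 of 7 probe sets, with 1 of the others at 0.12, and was not called as the mean of all 7, and Nxpe4 fell by 1.62, or by 0.89 against arrays 226 and 1001. The transcripts C920006O11Rik (2 of 2 probe sets, -1.68 and -1.23), 4930481A15Rik (-1.51) and the pseudogene Pisd-ps3 (-2.05) are of less certain function. C920006O11Rik was the steadiest of these: its C57BL/6J arrays spanned 5.66 to 5.82 and its FVB/NJ arrays 3.66 to 4.26.

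Genes of the circadian clock moved in both directions. In this clock ARNTL and its partners CLOCK and NPAS2 switch on the Per and Cry genes through E-box elements, PER and CRY proteins shut ARNTL off again, and the ROR and REV-ERB receptors set the rhythm of Arntl, while Dbp is an output gene that runs opposite to Arntl in phase. Of 17 measured clock genes 3 were called, beside 1.12% of all genes. Dbp was higher: it went from 4.80, 5.75 and 6.96 in the C57BL/6J F1 to 8.06, 8.04, 8.27 and 7.89 in the FVB/NJ F1 (2.39 ± 0.34, adjusted p = 0.00972). Arntl fell from 4.76, 5.49 and 5.86 to 3.64, 3.72, 4.25 and 3.49 (-1.67 ± 0.21, adjusted p = 0.00441), and its second probe set, at -0.81, was not called (adjusted p = 0.164). Cry1, a repressor of ARNTL, fell from 5.34, 5.59 and 5.95 to 4.76, 4.95, 4.97 and 4.90 (-0.73 ± 0.12, adjusted p = 0.0163).

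No FVB/NJ array overlapped a C57BL/6J array in these 3 genes, nor in Npas2 and Ciart, which missed the threshold (Npas2 -1.27, adjusted p = 0.0528; Ciart 0.92, adjusted p = 0.0824), which makes 5 of 17 beside 4.42% of all genes. The second Npas2 probe set gave 0.06. Clock (-0.60) and Nfil3 (-0.82) lay below 0 and Per1 (0.59), Tef (0.56) and Nr1d2 (0.50) above it, none of them called, and the list had 10 members above 0, 7 below and a median of 0.20. Array 1001 held the highest C57BL/6J value of Dbp (6.96) and the lowest of Arntl (4.76), so it lay nearest to the FVB/NJ F1 in both. Against arrays 226 and 1001 the differences were 1.71 for Dbp, -1.30 for Arntl and -0.52 for Cry1, and against arrays 1022 to 1025 they were 2.73, -1.86 and -0.84. By the study's methods the mice were fasted from lights-on before the blood draw at euthanasia. The labels do not give the hour of each mouse, and its part in these differences was not tested.

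The promoters of the 3 called clock genes are shown because the called members of the list include parts of the clock itself and its output gene Dbp, which was higher where the others were lower (RefSeq, build GRCm38.p6, 250 bases before to 50 bases after the start, 5′ to 3′ on the gene's strand, matches in capitals). The letters searched on both strands were CACGTG (the E-box), TAGGTCA (the core of the ROR and REV-ERB element) and TTATGTAA (the D-box that DBP binds), which do not overlap one another in these windows. Dbp, chr7:45704997-45705296, plus strand, holds none of the 3.
Dbp: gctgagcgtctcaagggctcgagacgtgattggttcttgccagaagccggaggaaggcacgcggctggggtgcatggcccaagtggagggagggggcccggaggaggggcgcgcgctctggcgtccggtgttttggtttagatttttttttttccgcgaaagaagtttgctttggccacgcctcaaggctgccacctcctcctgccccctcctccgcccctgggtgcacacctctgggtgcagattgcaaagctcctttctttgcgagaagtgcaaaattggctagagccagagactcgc
Arntl, chr7:113207261-113207560, plus strand, holds TAGGTCA 30 bases after the start; RefSeq lists 2 starts for the gene, and the window with the match is shown.
Arntl: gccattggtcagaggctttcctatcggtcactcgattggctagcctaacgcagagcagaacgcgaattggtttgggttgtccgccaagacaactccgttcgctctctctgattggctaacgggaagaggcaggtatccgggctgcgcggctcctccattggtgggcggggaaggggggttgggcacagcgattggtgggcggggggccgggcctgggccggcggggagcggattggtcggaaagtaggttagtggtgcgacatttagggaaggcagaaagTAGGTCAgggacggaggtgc
Cry1, chr10:85185005-85185304, minus strand, holds CACGTG 60 bases before the start.
Cry1: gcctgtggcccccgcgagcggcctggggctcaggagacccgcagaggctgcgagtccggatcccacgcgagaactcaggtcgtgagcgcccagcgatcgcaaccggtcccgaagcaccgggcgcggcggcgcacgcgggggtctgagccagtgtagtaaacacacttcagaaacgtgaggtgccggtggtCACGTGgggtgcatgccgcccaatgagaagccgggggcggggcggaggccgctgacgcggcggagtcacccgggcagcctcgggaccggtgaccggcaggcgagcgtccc
Of 32851 promoters of this length, 7.15% hold CACGTG, 2.61% TAGGTCA and 0.938% TTATGTAA. Counted by gene, with a match at any listed start, the shares are 8.09%, 2.97% and 1.11% of 27025 genes. Of the 15 clock genes with a promoter in the table, 5 hold CACGTG (Bhlhe41, Ciart, Cry1, Per1 and Tef), 2 hold TAGGTCA (Arntl and Nfil3) and 1 holds TTATGTAA (Per3).

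**Figure D3:**
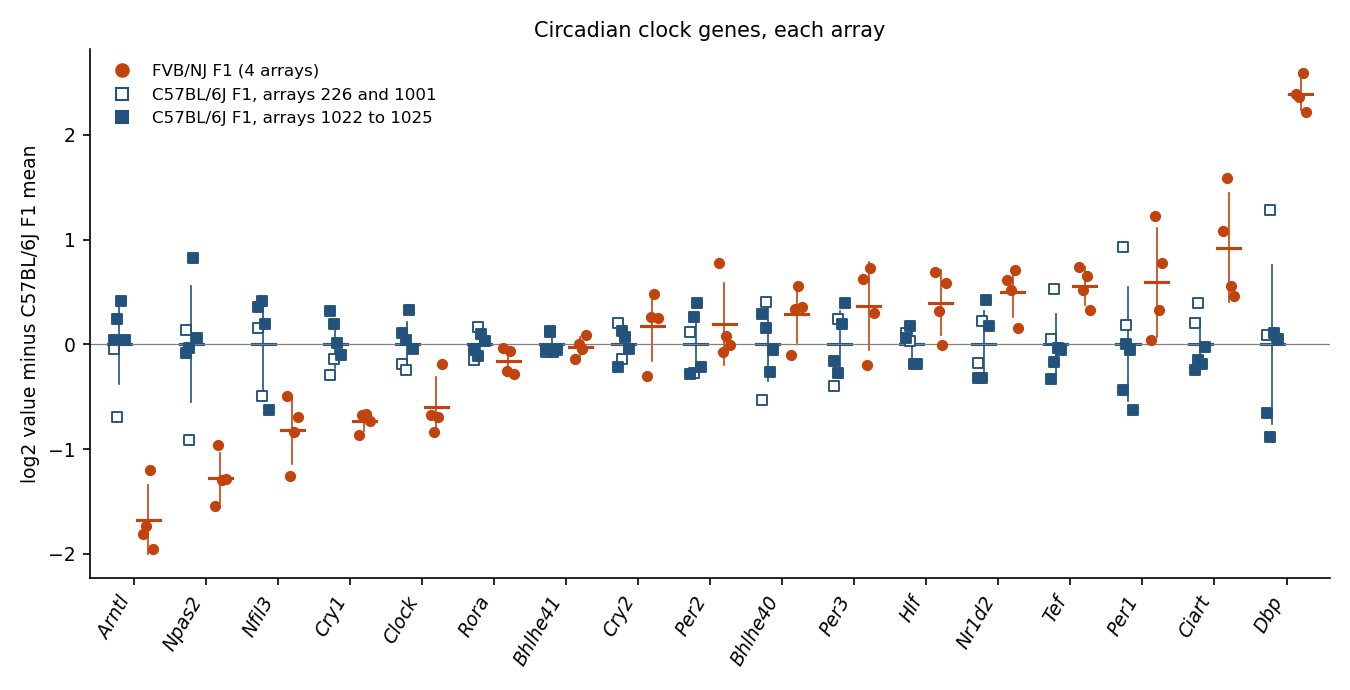
Log2 value of each array minus the mean of the C57BL/6J F1 (y axis) for 17 circadian clock genes, ordered by the FVB/NJ difference, with group means (bars) and SDs (lines). The FVB/NJ arrays lie below the C57BL/6J arrays for Arntl, Npas2 and Cry1 and above them for Ciart and Dbp, and the groups overlap in the other genes.

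The called genes of sterol and fatty acid synthesis were lower in the FVB/NJ F1. INSIG1 holds the sterol sensor SCAP in the endoplasmic reticulum and is itself a target of SREBP, and CYP51 demethylates lanosterol on the way to cholesterol. Insig1 read 8.50, 9.02, 9.20 and 9.12 against 9.57, 9.68 and 9.77 (-0.72 ± 0.12, adjusted p = 0.0249), and the C57BL/6J arrays differed little among themselves (SD 0.08). Cyp51 read 5.72, 6.41, 5.92 and 6.11 against 6.48, 6.84 and 7.14 (-0.78 ± 0.15, adjusted p = 0.0365); its other probe sets gave -0.52 and -0.07. Of 18 measured genes of the cholesterol pathway, these 2 were called, beside 1.12% of all genes. In this list 14 lay below 0, and the median was -0.48 beside 0.03 over all genes. Sqle, squalene epoxidase, had a wider difference (-1.05) that was not called (adjusted p = 0.142). Against arrays 226 and 1001 the median of the list was -0.41 and neither Insig1 nor Cyp51 was called.

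The fatty acid elongases Elovl5 and Elovl3 fell as well. Elovl5, which lengthens polyunsaturated chains, was called in both probe sets (-0.51 ± 0.10 and -0.70 ± 0.11) and read 10.46, 10.73, 10.57 and 10.77 against 10.90, 11.16 and 11.36 in the first. Elovl3, an elongase of brown fat, read 9.66, 8.93, 9.25 and 9.94 against 10.24, 10.51 and 11.26 (-1.16 ± 0.23, adjusted p = 0.0478). It was the only one of 9 measured brown adipocyte markers that was called; Ucp1 differed by -0.19 (adjusted p = 0.367), and the mean level of the list was 10.46 to 10.91 in FVB/NJ and 10.83 to 11.06 in C57BL/6J. Of 17 measured genes of fatty acid and triglyceride synthesis, Elovl5 was the only one called, 13 lay below 0, and the median was -0.16, or -0.00 against arrays 226 and 1001. The part of fat cells in these values was not tested.

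Gpt2, Aldh4a1 and Phgdh were higher. GPT2 and GPT are the mitochondrial and cytosolic alanine aminotransferases, ALDH4A1 completes proline breakdown, and PHGDH takes the first step from glycolysis to serine. Gpt2 read 8.21, 8.00, 8.14 and 8.63 against 6.21, 6.32 and 6.50 in its most abundant probe set (1.91 ± 0.12, 3.76-fold, adjusted p = 3.16e-05), and its other probe sets gave 2.00 and 1.72, both called. Aldh4a1 read 6.82, 6.74, 6.83 and 7.01 against 5.28, 5.45 and 5.87 (1.37 ± 0.12, adjusted p = 0.000358). Phgdh read 6.26, 6.57, 6.27 and 6.36 against 5.19, 5.64 and 5.87 (0.79 ± 0.14, adjusted p = 0.0262). The groups did not overlap in the probe sets read for these 3 genes. The second Phgdh probe set, at 0.47, was not called (adjusted p = 0.165), nor was the mean of the Phgdh probe sets.

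Smaller differences were called in Mtrr (0.73), which reactivates methionine synthase, Gpt (0.57), the stress phosphatase subunit Ppp1r15a (0.53) and the seryl-tRNA synthetase Sars (0.34). The second Sars probe set, at 0.24, was not called, nor was the mean of the Sars probe sets. A list of serine, one-carbon and ATF4 target genes, drawn up after the values had been seen and therefore without a test, had 7 of 35 measured members called, all higher, beside 0.521% of all genes, 28 above 0 and a median of 0.24. Several of its best known members were not called, with differences of -0.17 for Asns, 0.12 for Ddit3, 0.00 for Fgf21 and -0.60 for Trib3. Atf4 itself differed by 0.32 (adjusted p = 0.252).

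Of 26 measured genes of iron and haem handling, 2 were called higher and 3 lower, beside 0.521% and 0.597% of all genes. This list too was drawn up after the values had been seen and is therefore without a test. Tfr2, the second transferrin receptor and a sensor of iron, read 5.35, 4.75, 5.30 and 5.77 against 6.17, 6.63 and 7.50 (-1.44 ± 0.25, adjusted p = 0.025), and its second probe set fell by 1.23. The mitochondrial iron importer Slc25a37 and the haem enzyme Ppox fell by 0.51 each. Slc25a37 was called in 1 of its 3 probe sets, and the others gave -0.15 and -0.51. Alad, an early enzyme of haem synthesis, was higher by 0.86, or by 0.45 against arrays 226 and 1001. The second Alad probe set, at 0.29, was not called (adjusted p = 0.32). Neither Slc25a37 nor Alad was called as the mean of its probe sets. Heph, the ferroxidase hephaestin, was higher by 0.63. Heph read 4.19, 3.99, 3.96 and 3.85 against 3.16, 3.39 and 3.56. Tfrc, the first transferrin receptor, did not pass (0.39, adjusted p = 0.515).

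Single immune genes were called. The major histocompatibility class I gene H2-K1, which presents peptides from inside the cell, was called in all 4 probe sets (0.76, 1.15, 0.97 and 0.85), and its most abundant probe set read 11.86, 12.10, 11.98 and 11.78 against 10.83, 11.21 and 11.39; the class I genes are alike in sequence, so other class I transcripts may add to it. It was the only one of 19 measured genes of class I presentation that was called, with H2-D1 at 0.34 (adjusted p = 0.295), and the list had a median of 0.11. In class II presentation H2-Ea was the only one of 12 called. It read 3.56, 4.05, 3.52 and 3.63 against 2.85, 2.91 and 3.30, near the array medians of 3.23 to 3.32, so both groups were low. Its difference was 0.68 ± 0.13 (adjusted p = 0.0369), and its other probe sets did not pass.

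Among the p200 genes of chromosome 1, whose products sense or regulate DNA, neighbours went in opposite directions. Ifi202b read 5.65, 5.94, 5.71 and 5.40 against 2.97, 3.27 and 3.99 (2.26 ± 0.20, adjusted p = 0.000414), and Ifi205 read 6.18, 6.70, 6.72 and 6.15 against 7.30, 7.89 and 8.21 (-1.39 ± 0.20, adjusted p = 0.0111), with its other probe set at -1.03. Both have close paralogs in the cluster that a probe set may read. None of 25 measured interferon-stimulated genes was called. The widest, Usp18, had a difference of -1.49 (adjusted p = 0.241) with FVB/NJ values of 4.30, 7.37, 6.37 and 4.41, which spread more than the groups differed, and Xaf1 had a difference of -0.21 (adjusted p = 0.755). Jchain, which joins the chains of polymeric immunoglobulin, was higher: it read 7.60, 8.42, 7.55 and 7.67 against 4.43, 5.14 and 7.16 (2.45 ± 0.48, adjusted p = 0.0424). No other of 12 measured B cell and plasma cell markers was called, and the median of the list was 0.33. Vsig4, the complement receptor of resident macrophages, was higher by 0.96 (adjusted p = 0.0404), although FVB/NJ array 24 (3.21) lay below C57BL/6J array 226 (3.26). None of 20 macrophage markers, 14 foam cell genes, 11 T cell genes or 32 chemokine genes was called, and their medians were 0.30, -0.07, 0.31 and 0.16. Against arrays 226 and 1001 the macrophage median was -0.15, that of T cells 0.10 and that of chemokines 0.00. Hc differed by 0.12 (adjusted p = 0.474) at values of 2.40 to 2.84.

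Between the FVB/NJ and C57BL/6J groups, cells of the vessel wall gave no called marker. Of 19 measured smooth muscle genes none was called and 14 lay below 0, with a median of -0.23 that became 0.67 against arrays 226 and 1001 and -0.55 against arrays 1022 to 1025. Myh11, smooth muscle myosin, read 6.38, 7.56, 5.52 and 4.74 against 4.71, 7.68 and 9.16 (adjusted p = 0.487). The 15 endothelial genes had a median of -0.19 and the 14 fibroblast genes one of 0.30, with all 14 above 0. Against arrays 226 and 1001 these medians became 0.35 and 0.06. No gene of collagen chains (22 measured), elastic fibres (15) or proteoglycans (17) was called, and Eln, elastin, differed by -0.09 (adjusted p = 0.906). Ramp2, part of the adrenomedullin receptor, had a difference of -1.60 (adjusted p = 0.128), or -0.47 against arrays 226 and 1001. Its other probe sets gave -1.11 and 0.41. Apln, apelin, had a difference of -0.39 (adjusted p = 0.173), while Apoe differed by 0.70 (adjusted p = 0.182).

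A pair of secreted factors of skeletal tissue were higher. Cytl1, a cytokine of cartilage, read 9.25, 9.31, 7.98 and 8.42 against 6.61, 7.12 and 7.80 (3.03-fold, adjusted p = 0.0328), and no other of 14 measured cartilage genes was called. Fgf23, the phosphate hormone, read 3.04 to 3.18 against 2.66 to 2.91, below the array medians in every array (0.36 ± 0.07, adjusted p = 0.0444). All 15 measured skeletal muscle genes lay above 0, with a median of 1.24 that became 0.16 against arrays 226 and 1001, and none was called. Their mean level ran from 7.49 to 11.3 over the FVB/NJ arrays and from 5.20 to 9.93 over the C57BL/6J arrays, so the groups overlapped. Pvalb, the calcium buffer of fast fibres, read 9.82, 7.06, 10.78 and 6.18 against 3.56, 5.54 and 8.93.

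**Figure D4:**
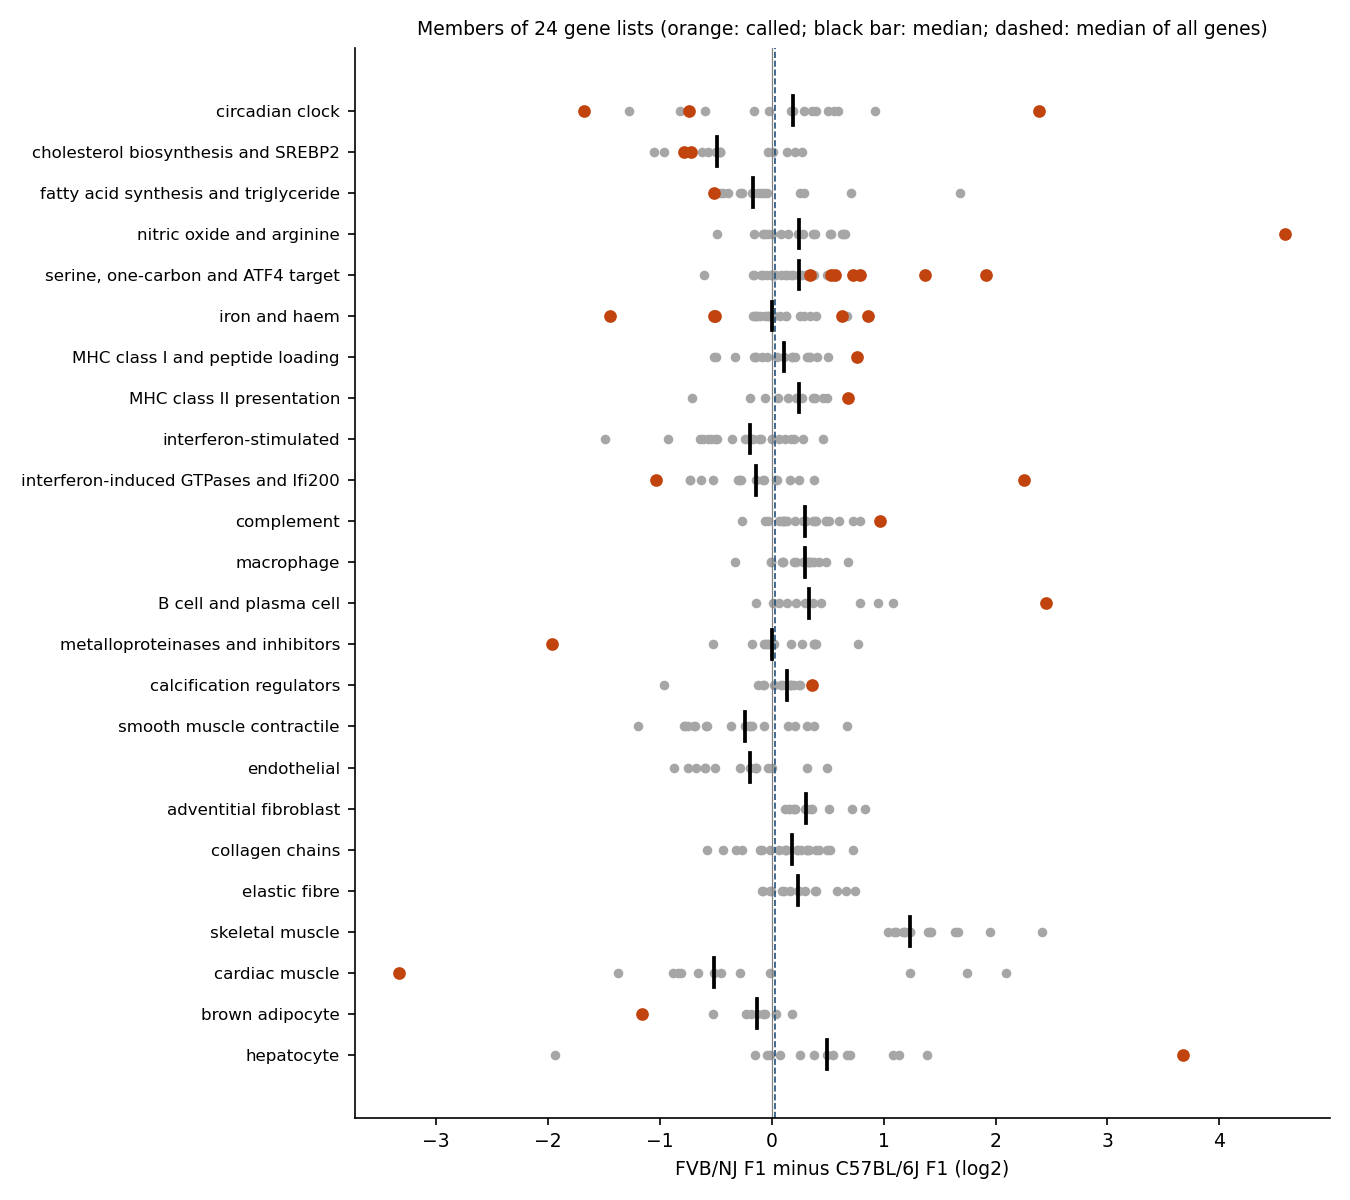
Differences between the FVB/NJ F1 and the C57BL/6J F1 (log2, x axis) for the measured members of 24 gene lists (y axis); orange points passed an adjusted p of at most 0.05, black bars are list medians and the dashed line is the median of all genes, 0.03. Most lists hold 0 to 3 called members, the cholesterol list has a median of -0.48 and the skeletal muscle list one of 1.24 with no called member.

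Over all 51 lists, 19 of 833 measured genes were called beside 1.12% of all genes, 10 higher and 9 lower, and 36 lists held none. Oxidative phosphorylation (36 measured), fatty acid oxidation (19), the lysosome (21), the cell cycle (22), Hox genes (25) and both lists of imprinted genes (15 and 20) were among these, with medians between -0.09 and 0.10. Nnt was not called: it read 7.92, 6.73, 8.95 and 5.70 against 4.93, 5.78 and 6.53, a difference of 1.54 ± 0.56 (adjusted p = 0.193) with an FVB/NJ SD of 1.41. Nnmt, nicotinamide methyltransferase, differed by -0.07 (adjusted p = 0.907).

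Along the GRCm38.p6 annotation, 13 pairs of adjacent measured genes were both called, and no run was longer. The pair Ugt1a9 and Ugt1a6a on chromosome 1, enzymes that attach glucuronic acid, rose together by 1.56 and 1.57; they share exons, so a probe set may read both. Ugt1a9 read 8.49, 8.92, 8.66 and 8.50 against 6.35, 6.95 and 8.07, and the difference from arrays 226 and 1001 was 0.81. Slc25a37 and Entpd4, a nucleotide phosphatase, lie side by side on chromosome 14 and fell by 0.51 and 0.66. Entpd4 read 8.55, 8.39, 8.47 and 8.73 against 9.05, 9.22 and 9.29 (SE 0.08, adjusted p = 0.00464). Its second probe set, at -0.11, was not called (adjusted p = 0.591).

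The other 99 strains of the series served as a common background for both groups. Each strain's mean was set against the mean of these strains, in fits that left out the other of the pair; the fits share the FVB/NJ or the C57BL/6J arrays with the comparison above, so they are given side by side and are not separate evidence. For the FVB/NJ F1, 9013 probe sets were called (20%), 4158 higher (9.21%) and 4855 lower (10.8%), a count that ranked 4 from the top among 71 strains with 4 arrays (median 1758, range 187 to 12752). All FVB/NJ title numbers are at most 100, as are those of 21 arrays in the series. With that number as a covariate, added after seeing the data, 2924 probe sets were called. The rank was taken without this covariate. For the C57BL/6J F1, 1745 were called (3.87%), 1321 higher (2.93%) and 424 lower (0.939%).

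The smooth muscle genes Myh11 and Acta2 had lower means than in the other strains in both groups. Myh11 differed by -2.82 in FVB/NJ (adjusted p = 0.000105) and -1.62 in C57BL/6J (adjusted p = 0.0403), and Acta2 by -1.80 (adjusted p = 0.00019) and -1.11 (adjusted p = 0.03). Arrays 226 and 1001 lowered the C57BL/6J means. They read 5.37 and 4.71 for Myh11, against 7.52 to 9.16 in arrays 1022 to 1025. For Acta2 they read 9.39 and 8.88, against 10.71 to 11.69. In other genes the FVB/NJ F1 passed the test against the other strains and the C57BL/6J F1 did not. Gdpd3 lay 3.76 ± 0.21 above the other strains in FVB/NJ (adjusted p = 5.56e-42) and -0.17 from them in C57BL/6J (adjusted p = 0.733). These standard errors and p-values rest on the spread between mice within strains and not on the spread among strain means. For Gdpd3 the SD of the other strains' means was 1.33, and FVB/NJ ranked 10 from the top of 101. Psmc3ip gave 2.98 and 0.04, Alb 3.58 and -0.09, Gabra3 -2.41 and 0.06, and Ugt1a6a 1.66 and 0.09. Counted from the top, FVB/NJ ranked 2 in Psmc3ip, Alb and Ugt1a6a and 95 in Gabra3. FVB/NJ ranked 1 of 101 strain means in Cytl1, Fgf23, Apoe, Gpt and the called probe set of Sars. It ranked 101 in the Ramp2 probe set with the difference of -1.60, and C57BL/6J was called in none of these. FVB/NJ also ranked 1 in the called probe set of Pnpt1 and 101 in C920006O11Rik, where C57BL/6J was called too (-0.86 and 0.55).

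In others the C57BL/6J F1 passed the test against the other strains and the FVB/NJ F1 did not. Arntl and Cry1 ranked 1 of 101 strain means in C57BL/6J (1.06 and 0.63 above the other strains, adjusted p = 0.000214 and 1.84e-05), while FVB/NJ did not pass (-0.61, adjusted p = 0.0759, and -0.11, adjusted p = 0.646). Entpd4 and Slc25a37 lay 0.59 and 0.46 above the other strains in C57BL/6J and -0.07 and -0.05 from them in FVB/NJ. In Gchfr both passed, with FVB/NJ 2.46 above and C57BL/6J -2.13 from the mean of strains whose own SD was 2.16. Serpina1b, Ifi202b and Ptprf likewise had FVB/NJ above (2.32, 1.04 and 0.87) and C57BL/6J below (-1.29, -1.21 and -1.22). The FVB/NJ mean ranked 5, 22 and 44 of 101 in these genes and 8 in Gchfr. H2-Ea was low in both, at -1.88 in FVB/NJ and -2.56 in C57BL/6J (both called).

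**Figure D5:**
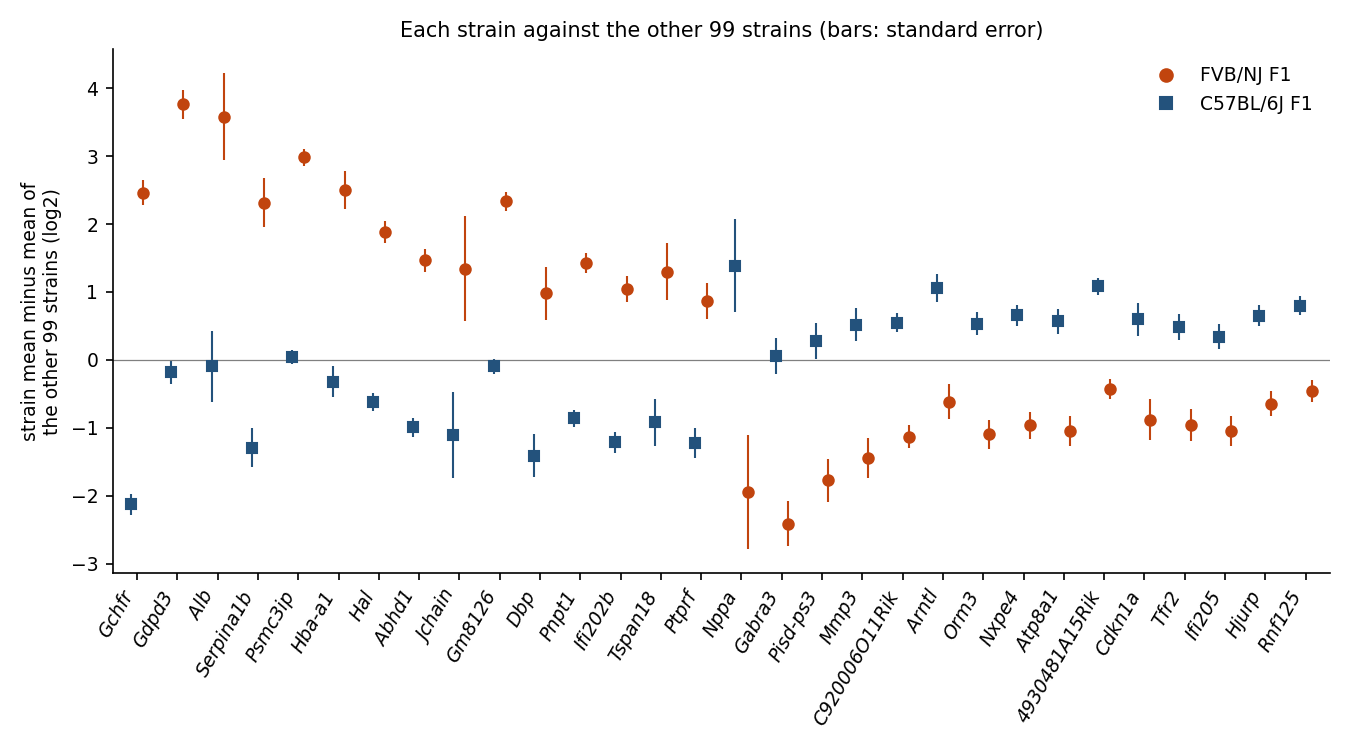
Mean of the FVB/NJ F1 (circles) and of the C57BL/6J F1 (squares) minus the mean of the other 99 strains (log2, y axis) for the 30 genes with the largest called differences, with standard errors. Gdpd3, Psmc3ip, Alb, Gm8126 and Gabra3 have the C57BL/6J square near 0, and in Gchfr the strains lie on opposite sides at 2.46 and -2.13.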

How the data were processed

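Total RNA of each aorta was hybridized to its own Affymetrix array, named HT_MG-430A in the labels and HT-MG_430 PM in the study's methods. The deposited values are log2 intensities that the authors made with GCOS and RMA (versions not given in the sources used here), and all columns of the table were matched to a sample. Probe sets were named through the platform annotation, updated to RefSeq symbols; 28898 had 1 symbol, 551 several and 15692 none, and probe sequences were not used here. FVB/NJ and C57BL/6J arrays were compared with limma 3.58.1 (R 4.3.3, lmFit and eBayes, 8 residual degrees of freedom), without renormalization, and adjusted over all probe sets by Benjamini-Hochberg at 0.05. The code was tested on simulated data with independent probe sets and no split among the C57BL/6J arrays. That test checks the code and not the error rate in these data. The number of arrays limits the precision. The exact two-sided permutation test over 210 divisions cannot go below 0.00952, and groups that do not overlap reach this floor by construction. Every named called gene but Vsig4, Gpt and 1 probe set of H2-K1 reached it (0.019 in these). It therefore adds nothing to the lack of overlap, for which the 15 largest calls in each direction were chosen. In lists a gene was read from the most abundant of its probe sets across 366 arrays, and otherwise from its widest called one. Named genes were the 15 largest non-overlapping calls in each direction, up to 4 called or 2 uncalled members per list, 12 fixed genes and called neighbours; genes of the 2 added lists, Npas2, Ciart and other uncalled genes were added after their values were seen. Members and lists were chosen with earlier results of these data known. Each array is a mouse, so p-values measure the spread between mice. The fits treat the arrays of a strain as independent, so the p-values do not allow for the split among the C57BL/6J arrays.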

Additional observations from a re-analysis of the deposited data

Results flagged for a closer look

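Among 85 named genes, 4 of 170 groups held an array far from the rest of its group, by the gap to the nearest array over the group's range; chance flags about 1 in 20 groups. In Gdpd3, C57BL/6J array 226 stood at 4.84, above the next highest at 3.76. In Jchain, FVB/NJ array 22 stood at 8.42, above 7.67. In Tfrc, FVB/NJ array 24 stood at 8.74, above 7.50. In Xaf1, C57BL/6J array 1001 stood at 5.82, below 6.80.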

How the results depend on the processing

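None of the named genes that were called reversed its sign under any of the alternatives. Where the groups do not overlap, leaving out arrays cannot reverse the sign, so for most of these genes that part was fixed in advance. The 412 calls between FVB/NJ and C57BL/6J became 4932 with array weights, 111 at an adjusted p of at most 0.01, and 175 to 3352 without 1 array. With 1 spread fitted over all strains they became 3391. That fit over all strains gave 671 calls with the title number as a covariate. It gave 3341 with muscle, brown adipocyte and hepatocyte scores as covariates. Alternatives chosen after seeing the data gave 13 without the C57BL/6J arrays 1022 to 1025 and 8611 without arrays 226 and 1001. The 9013 calls of FVB/NJ against the other strains became 2924 with the title number (added after seeing the data) and 5306 to 7660 without 1 array. The 1745 calls of C57BL/6J became 3376 against classical inbred strains, 816 to 1527 without 1 array and, in alternatives added after seeing the data, 2713 with tissue scores, 4485 without arrays 1022 to 1025 and 937 without arrays 226 and 1001. The lower threshold gives fewer calls by construction; for the rest the cause was not tested. Of 54 named called genes, 20 lost the call with the title number, 49 without arrays 1022 to 1025, 7 as the mean of all probe sets of the gene and 4 with median centring. No paired analysis was possible because the labels give no replicate numbers shared between the strains.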
